A study of Arabidopsis thaliana with 6 samples.

Results

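Among Arabidopsis genes listed here only by locus code, 77 were much lower in 10-day-old seedlings expressing human p53 than in wild type (WT) seedlings. Listed here means in the array annotation and the gene reference, and names given in other sources were not used. They were chosen from 10939 probe sets that each name 1 nuclear gene, not a pseudogene, known only by its locus, with AT4G14090 left out. A gene was taken when the mean of the 3 p53 arrays lay 1.5 or more below the mean of the 3 WT arrays on the log2 scale and the highest p53 array lay below the lowest WT array. The whole table held 22746 probe sets. Because these values chose the genes, their differences between the genotypes are given as a description, with no test.

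The WT seedlings were Col-0. The p53-transgenic seedlings, labelled 35S:P53 transgenic, were also Col-0 and carried human p53 under the constitutive 35S promoter of cauliflower mosaic virus. Each genotype had 3 arrays of whole seedlings, and per the labels the replicates came from 3 independent experiments. The sources used here do not say which transgenic line gave the RNA, and the transgene itself was not measured on this array.

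Human p53 is a transcription factor that in animals answers DNA damage by arresting the cell cycle, promoting repair or starting cell death, and plants have no gene of its family. A locus code such as AT1G80130 gives the species, the chromosome and the place of a gene along it, and nothing of what the gene does. Neither the array annotation nor the reference used here gives a role for any of the 77, and roles described in other sources were not used. The 77 genes are therefore described by their values, their position, their length and the named genes they resemble.

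Expression was measured on the Affymetrix ATH1 array, which reads each transcript with a set of short oligonucleotides called a probe set. In the deposited table every probe set has its own 6-array median at 0, so a value says how an array stood relative to the others and not how strongly a gene was expressed. No source used here states the log base, and 2 was assumed. Array medians lay between -0.02 and 0.01. With limma, 2010 of 22746 probe sets were lower (8.84%) and 1490 higher (6.55%) in p53-transgenic seedlings at an adjusted p under 0.05. Seedlings hold many cell types, and fewer cells of a type cannot be told apart from less RNA per cell. Of 26 markers of leaf, root, seed and flower cells, only EXPA7, an expansin of root hairs, had a probe set naming it alone, and its difference was -0.02 (standard error 0.11, limma adjusted p = 0.947), so the labelled tissue could not be checked.

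The 77 genes made up 0.704% of the 10939 locus-only probe sets, of which 19.7% had all p53 arrays below all WT arrays. The rule fixed their direction, and no locus-only probe set with a difference of -1.5 or lower was left out for overlapping arrays. The same thresholds took 35 of 1477 probe sets of genes with a symbol (2.37%). Turned upward, they took 160 locus-only probe sets (1.46%) and 19 of genes with a symbol (1.29%). Among locus-only genes the strongly lower ones were thus fewer than the strongly higher ones, and among genes with a symbol this order was the other way round. No test of these shares was made.

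Differences (p53 minus WT) ran from -5.19 to -1.502, with a median of -1.77, against -0.02 over all locus-only probe sets. Read as log2, the genes were 2.83-fold to 36.5-fold lower. The distribution was steep, with 4 genes below -3, 21 between -3 and -2 and 52 between -2 and the threshold.

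**Figure D1:**
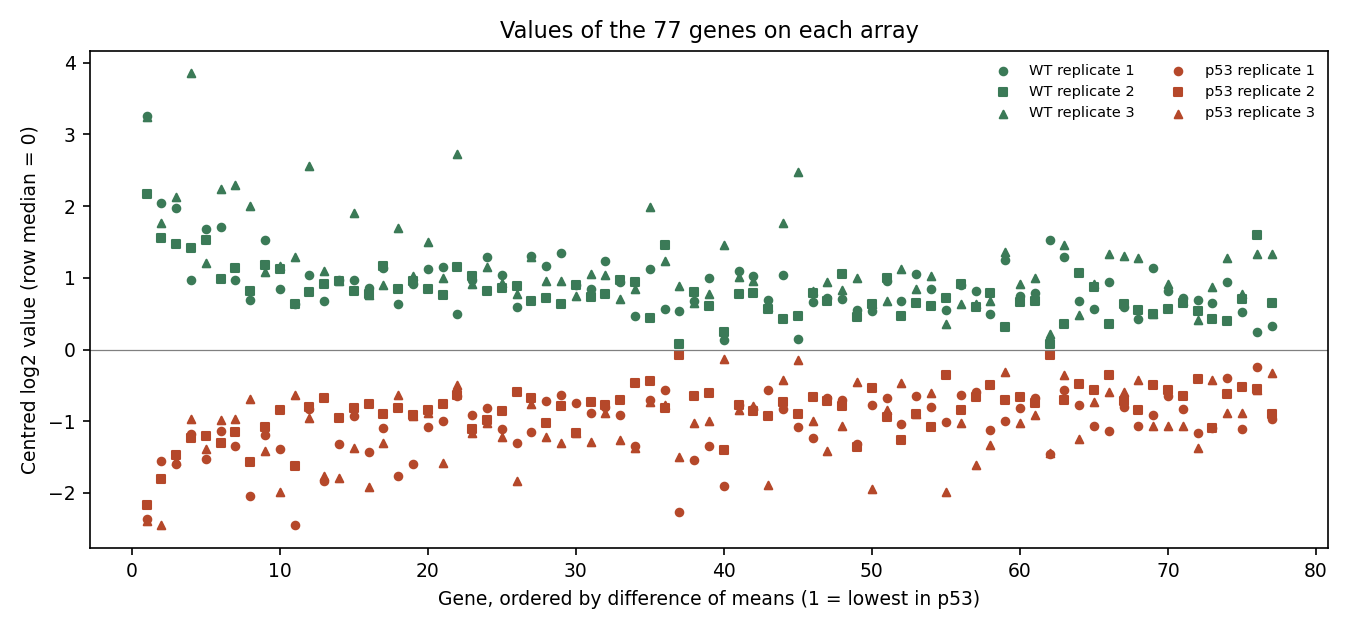
Centred log2 values (vertical axis) of the 77 genes on each of the 6 arrays, with genes ordered along the horizontal axis by their difference of means and markers for the replicate number. The WT arrays lie above 0 and the p53 arrays below it for every gene, because the row median is 0 and the rule allowed no overlap. AT1G80130, first in the order, stands apart with a difference of means of -5.19.

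AT1G80130 had the lowest difference of all. Its values were 3.25, 2.17 and 3.24 in WT replicates 1 to 3 and -2.36, -2.17 and -2.39 in p53 replicates 1 to 3. The p53 arrays lay close together (SD 0.12, n = 3), and the lowest WT array stood 4.34 above the highest p53 array. Its difference stayed between -5.55 and -5.01 when any single array was left out.

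AT1G51090 followed with a difference of -3.73. It had 2.04, 1.56 and 1.77 in WT and -1.56, -1.81 and -2.45 in p53-transgenic seedlings. Here the spread lay more in the p53 arrays, of which replicate 3 was the lowest. AT1G22160 had 1.97, 1.47 and 2.13 against -1.60, -1.47 and -1.55, a difference of -3.40 with p53 arrays that were nearly equal (SD 0.07, n = 3). AT5G22460 had 1.68, 1.52 and 1.21 against -1.53, -1.21 and -1.39, a difference of -2.85. In both genes the gap between the genotypes was wider than the range within either.

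AT3G53980 had 1.71, 0.98 and 2.24 in WT and -1.14, -1.30 and -0.98 in p53-transgenic seedlings (difference -2.78). AT2G23910 had 1.52, 1.18 and 1.08 against -1.19, -1.08 and -1.41 (difference -2.49). AT2G38465 had 0.85, 1.12 and 1.17 against -1.39, -0.85 and -1.99 (difference -2.45). The WT arrays were the more even ones for AT2G38465, and the p53 arrays for AT3G53980.

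A neighbouring trio on chromosome 4, AT4G27652, AT4G27654 and AT4G27657, was set apart by WT replicate 3. AT4G27654 had 0.97, 1.41 and 3.85 in WT against -1.18, -1.24 and -0.97 in p53-transgenic seedlings, a difference of -3.21. AT4G27657 had 0.97, 1.14 and 2.29 against -1.34, -1.15 and -0.97 (difference -2.62). AT4G27652 had 1.04, 0.80 and 2.56 against -0.83, -0.80 and -0.95 (difference -2.33). WT replicate 3 was the highest array for each of them, while their p53 arrays varied little. Without WT replicate 3 the differences were -2.32, -2.21 and -1.78 for AT4G27654, AT4G27657 and AT4G27652.

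In AT2G41640 and AT4G27280 the p53 arrays were spread widely as well. AT2G41640 had 0.69, 0.82 and 2.0 in WT and -2.04, -1.57 and -0.69 in p53-transgenic seedlings (difference -2.60). AT4G27280 had 0.64, 0.63 and 1.29 against -2.45, -1.63 and -0.63 (difference -2.42). For both, p53 replicate 1 was the lowest and p53 replicate 3 the highest of the transgenic arrays.

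**Figure D2:**
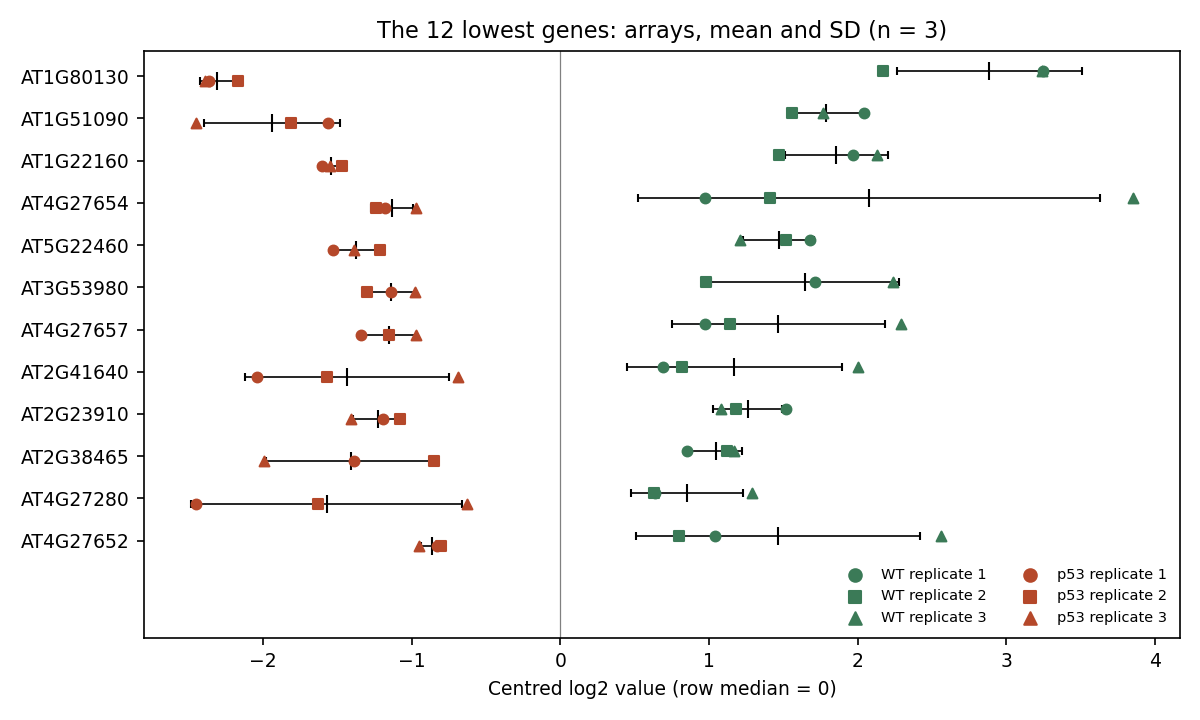
Centred log2 values (horizontal axis) of the 12 genes with the lowest differences, with WT arrays in green, p53 arrays in red, a marker for each replicate number, and the mean and SD of 3 arrays as a tick with bars. WT replicate 3 stands far to the right for AT4G27654 at 3.85, and p53 replicates spread most for AT2G41640 and AT4G27280.

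All of these 12 genes still met the rule when any 1 of the 6 arrays was left out. Of the 25 genes with a difference below -2, 24 did so. The exception was AT1G33760, with 0.50, 1.15 and 2.72 in WT and -0.65, -0.64 and -0.50 in p53-transgenic seedlings, whose difference of -2.05 became -1.42 without WT replicate 3. Over all 77 genes, 48 met the rule in each of the 6 settings and 29 failed it in at least 1. The arrays whose removal lost the most genes were WT replicate 3 with 17, p53 replicate 3 with 15 and p53 replicate 1 with 12, whereas WT replicate 2 cost 3.

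Near the threshold the choice turned on hundredths. Just inside lay AT1G67340 at -1.507, AT1G19960 at -1.504 and AT2G39650 at -1.502, and just outside AT3G16800 at -1.499, AT1G32860 at -1.484 and AT5G61290 at -1.483. The arrays of the genotypes did not overlap for any of these 6 genes.

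How clearly the genotypes were separated varied among the 77 genes. Because the row median is 0 and the genotypes do not overlap, the lowest WT and the highest p53 value of each gene are mirror images, as was the case for all 77, so the distance between them is the measure of separation. The rule asked for no overlap and a difference of -1.5 or lower, so a wide distance was largely fixed by the choice. No share over all locus-only probe sets is given for the counts that follow. The distance ran from 0.17 to 4.34, with a median of 1.29, and for 55 genes it was wider than the range within either genotype. For 23 genes it was under 1, and for 5 under 0.5.

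Those 5 genes were AT4G01390, AT4G29700, AT3G04640, AT4G29780 and AT1G19960, named after their values were seen. AT4G01390 had 0.54, 0.08 and 0.89 in WT and -2.26, -0.08 and -1.5 in p53-transgenic seedlings, so replicate 2 of the genotypes nearly met. The same held for AT4G29700, with 1.53, 0.08 and 0.22 against -1.45, -0.08 and -1.44. AT4G29780 had 0.14, 0.47 and 2.48 against -1.08, -0.90 and -0.14. Its difference of -1.74 rested largely on WT replicate 3, without which it was -1.02.

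At the other end were genes with almost equal arrays within a genotype. AT1G04770 had 0.97, 0.95 and 0.96 in WT (SD 0.01, n = 3) and -1.32, -0.95 and -1.79 in p53-transgenic seedlings. AT1G27200 had 1.02, 0.79 and 0.96 in WT and -0.83, -0.86 and -0.79 in p53-transgenic seedlings (SD 0.04, n = 3). The median SD over the 77 genes was 0.23 in WT and 0.29 in p53-transgenic seedlings, against 0.10 and 0.14 over all locus-only probe sets. The SD was larger in WT for 35 of the 77 genes (45.5%) and for 35.5% of all locus-only probe sets.

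Within each genotype the arrays did not rank evenly. WT replicate 3 was the highest WT array for 38 of the 77 genes (49.4%), against 34.4% of all locus-only probe sets. WT replicate 2 was the lowest WT array for 40 (51.9%, against 34.9%). Among the transgenic arrays replicate 3 was the lowest for 40 genes (51.9%, against 34.7%) and replicate 2 for 11 (14.3%, against 38.8%). The rule used these same values, genes with a strong difference have a larger spread than most, and no test of these shares was made.

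**Figure D3:**
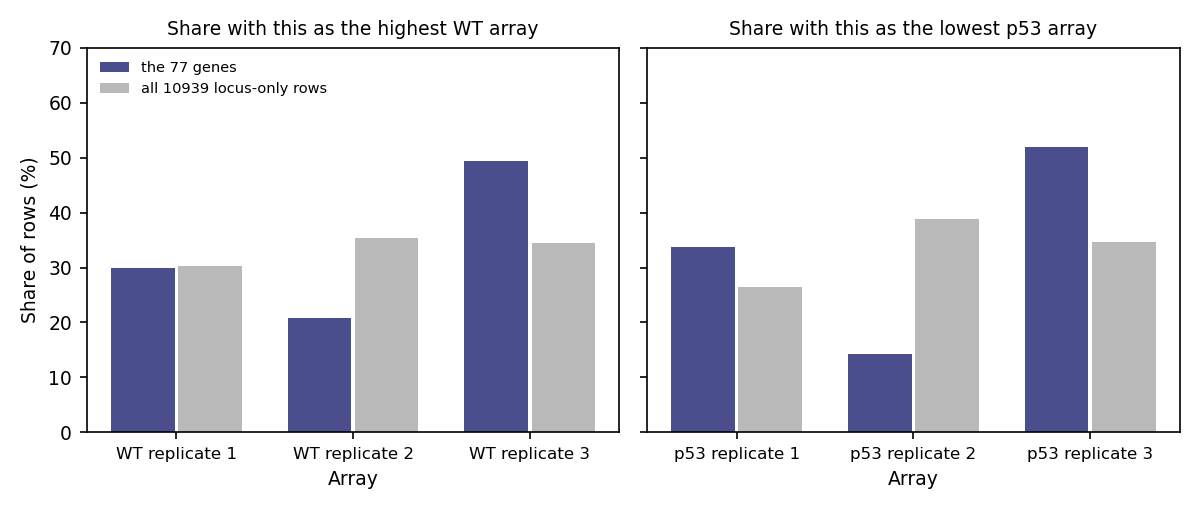
Share of rows in percent (vertical axis) for which each array was the highest of the 3 WT arrays (left) or the lowest of the 3 p53 arrays (right), for the 77 genes and for all 10939 locus-only probe sets. WT replicate 3 and p53 replicate 3 take the largest shares of the 77 genes, 49.4% and 51.9%.

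The order of the arrays in both genotypes was also counted together. In 21 genes (27.3%, against 11% of all locus-only probe sets) WT replicate 3 was the highest WT array and p53 replicate 1 the lowest p53 array. Besides AT4G27657, AT2G41640 and AT4G27280 these included AT1G72920, AT3G62960, AT2G47880 and AT1G73040. AT1G72920 had 0.64, 0.85 and 1.69 in WT and -1.76, -0.81 and -0.64 in p53-transgenic seedlings. In 18 genes (23.4%, against 10.8%) WT replicate 1 was the highest and p53 replicate 3 the lowest. In 12 genes WT replicate 2 was the highest and p53 replicate 3 the lowest, a share of 15.6% that was close to the 16.2% of all locus-only probe sets. AT1G73600 was of this last kind, with 0.54, 0.64 and 0.63 against -0.77, -0.54 and -1.94, as was AT1G68600, with 0.55, 0.72 and 0.36 against -1.01, -0.36 and -1.98. In both genes p53 replicate 3 lay far below the other transgenic arrays.

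WT replicate 3 stood more than 0.5 above both other WT arrays for 16 of the 77 genes, against 98 of all locus-only probe sets (0.896%). WT replicate 1 did so for 2 genes (against 0.265% of all) and WT replicate 2 for none (against 0.978%). The widest such distance was 2.44 in AT4G27654, followed by 2.01 in AT4G29780 and 1.57 in AT1G33760. Among the transgenic arrays, replicate 3 stood more than 0.5 below the others for 10 genes, where 3.99% of all locus-only probe sets did, and replicate 1 for 6, where 0.375% did. Replicate 2 did so for none, against 2.5% of all. The widest distance was in AT1G73600, at 1.17 for replicate 3. A high WT array or a low p53 array itself lowers the difference of means, so the rule favoured genes with such arrays. The part that growth, harvest or hybridization of single arrays had in these distances was not tested. The paper's quality summary marks all 6 arrays as outside bounds in a threshold test, with control ratios that differ between arrays. That summary was not used here.

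Taken by replicate number, each p53 array was compared with the WT array of the same number. The median difference over the 77 genes was -1.87 in replicate 1, -1.54 in replicate 2 and -2.05 in replicate 3, while over all locus-only probe sets the medians were -0.02, -0.04 and -0.01. The difference was widest in replicate 3 for 45 genes, in replicate 1 for 24 and in replicate 2 for 8. With the arrays paired in this way, 36 of the 77 genes had a difference of -1.5 or lower in all 3 pairs. No such counts over all locus-only probe sets are given here, so these counts cannot be read as particular to the 77. Over the whole table p53 replicate 3 had the widest quartiles of the transgenic arrays, -0.15 and 0.16.

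The genes lay on all 5 chromosomes. Chromosome 1 held 28 of them (36.4%, against 26.6% of locus-only probe sets), chromosome 4 held 13 (16.9% against 14.2%), and chromosomes 2, 3 and 5 held 12 each (15.6%). The probe sets of these 3 chromosomes made up 15.2%, 20.4% and 23.6%, so the share of chromosome 2 was close to that of its probe sets and those of chromosomes 3 and 5 were below it. Along the protein-coding genes of the TAIR10.1 reference, AT4G27652, AT4G27654 and AT4G27657 were direct neighbours, as were AT1G78060 and AT1G78070, with AT1G78020 a further 4 places away from AT1G78060. AT4G29700 and AT4G29780 were 9 places apart, and no other members that follow each other along a chromosome lay within 10 places. AT1G78060 had 0.94, 0.97 and 0.70 in WT and -0.91, -0.70 and -1.26 in p53-transgenic seedlings, and AT1G78070 had 1.17, 0.72 and 0.95 against -0.72, -1.03 and -1.22. AT1G78020 had 0.72, 0.68 and 0.94 against -0.68, -0.72 and -1.41. The lowest array was p53 replicate 3 in each of the 3 genes.

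Genes next to the 77 were not used in their choice, so they could be tested. A locus-only neighbour that met the rule would itself belong to the 77, so wide falls were largely excluded beforehand and rises were not. The nearest gene on each side with a probe set naming it alone gave 148 genes with 151 probe sets, not counting the 5 neighbours that belonged to the 77 themselves. Only 82 of the 151 probe sets were of genes directly next to one of the 77. The others lay further away, such as AT3G03790 at 11 places. Of these 151, 21 were lower (13.9%) and 5 were higher (3.31%) in p53-transgenic seedlings at a limma adjusted p under 0.05. Among all 12336 nuclear, protein-coding probe sets naming 1 gene that is not among the 77, the neighbours included, 8.63% were lower and 6.01% higher. The median difference of the neighbours was -0.05, and that of the 12336 was -0.01. The counts of neighbours depended on single arrays, as did those over the whole table. Without WT replicates 1, 2 or 3 or p53 replicate 1, in turn, 9, 12, 9 and 8 neighbours were lower. These were 5.96%, 7.95%, 5.96% and 5.3%, against 3.75%, 5.26%, 3.49% and 3.75% of the 12336. Leaving out replicate 1 or 3 of WT, or replicate 1 of p53, gave 2 higher neighbours each time (1.32%, against 3.35%, 3.02% and 3.1%). Leaving out replicate 2 of p53 gave 9 (5.96% against 7.94%). The shares themselves were not tested against each other.

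PEL1, which adjoins AT4G27652 on the side away from the rest of the trio, rose further than any other neighbour. It is the Arabidopsis counterpart of Pelota, which in yeast and animals frees stalled ribosomes. Its values were -1.33, -1.66 and -1.37 in WT and 2.11, 1.33 and 1.68 in p53-transgenic seedlings. It rose by 3.16 on the log2 scale (95% confidence interval 2.67 to 3.64, limma adjusted p = 0.000251), higher in all 3 p53 arrays than in any WT array, next to a gene with a difference of -2.33. Its WT arrays lay close together, and WT replicate 3 did not stand apart from the others as it did in the trio. The adjusted p of PEL1 ran from 1.11e-06 to 0.0181 over all alternatives tried. On the other side AT4G27660 had a difference of -0.24 (adjusted p = 0.298). Of the 17 protein-coding genes within 8 places of AT4G27654, 10 had a probe set of their own, and apart from PEL1 and the trio 1 of them passed, AT4G27620 with a difference of -0.33 (adjusted p = 0.0358).

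**Figure D4:**
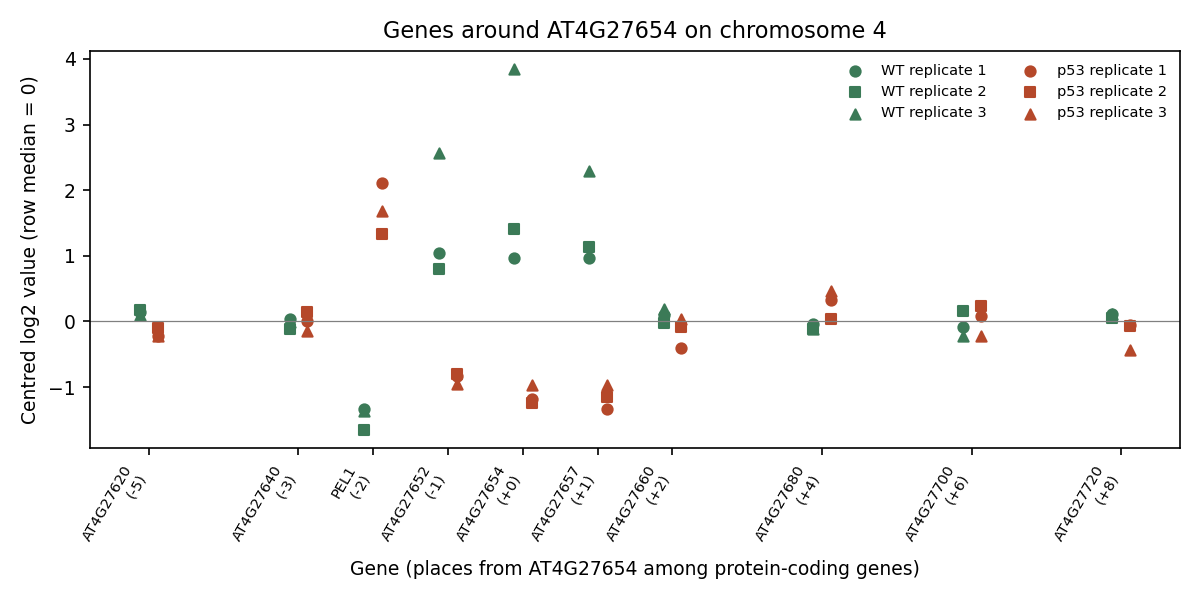
Centred log2 values (vertical axis) on the 6 arrays for the genes with a probe set of their own within 8 places of AT4G27654 on chromosome 4, placed by gene order among protein-coding genes (horizontal axis). PEL1 has p53 arrays between 1.33 and 2.11 above WT arrays between -1.66 and -1.33, and the 3 genes next to it have the opposite order.

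AT1G07380, 6 places from the nearest of the 77, also rose. It had -0.87, -1.09 and -0.94 in WT and 0.94, 1.19 and 0.87 in p53-transgenic seedlings, a difference of 1.97 (standard error 0.11, limma adjusted p = 0.00015). AT3G62950, directly next to AT3G62960 and named after its values were seen, rose as far, with a difference of 1.97 (adjusted p = 0.0255). Its WT arrays were more spread, with -2.21, -0.39 and -1.68 against 0.39, 0.81 and 0.44. The 21 neighbours that fell had differences between -1.28 and -0.35. The widest was that of AT4G23880, named after its values were seen, with 0.67, 0.15 and 0.68 in WT and -1.07, -1.11 and -0.15 in p53-transgenic seedlings (adjusted p = 0.0269). Those with the smallest p differed less. AT4G19430, 4 places from the nearest of the 77, fell by 0.98 (limma adjusted p = 0.00154). AT5G43140, next to AT5G43150, fell by 0.75 (adjusted p = 0.00216). ATG8B, a ubiquitin-like protein of autophagosome formation that lies next to AT4G04630, was named after its value was seen and fell by 0.72 (adjusted p = 0.00835). AT1G07380, AT4G19430 and AT5G43140 passed under every alternative tried. AT1G68620, between AT1G07380 and PEL1 in the size of its difference, did not pass. It had -0.54, -0.41 and -0.30 in WT and 2.78, 0.30 and 4.10 in p53-transgenic seedlings (difference 2.81, 95% confidence interval 0.78 to 4.84, adjusted p = 0.0735), with p53 replicate 2 far below the other transgenic arrays. It was named after its values were seen.

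The 77 genes were short. Their median length in the reference, from start to end of the gene with introns, was 1396 bp (quartiles 992 and 2349), against 2090 bp (quartiles 1403 and 3001) for all locus-only probe sets. Of the 77, 20 were under 1000 bp (26%), against 12.9% of all, and 52 (67.5%) were shorter than the overall median. The 160 locus-only probe sets that met the thresholds in the upward direction had a median of 1911 bp, and 91 of them (56.9%) lay below that overall median. Genes with a symbol that met the same downward thresholds were also shorter than their background. Their 35 probe sets had a median of 1997 bp, against 2414 bp for all 1477 probe sets of genes with a symbol. The trio on chromosome 4 was among the shortest, with 515 bp for AT4G27654, 684 bp for AT4G27652 and 713 bp for AT4G27657. The shortest was AT3G28310 with 415 bp and the longest AT2G16990 with 5172 bp. A single transcript was annotated for 56 of the 77 genes (72.7%), against 59.3% of all locus-only probe sets.

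**Figure D5:**
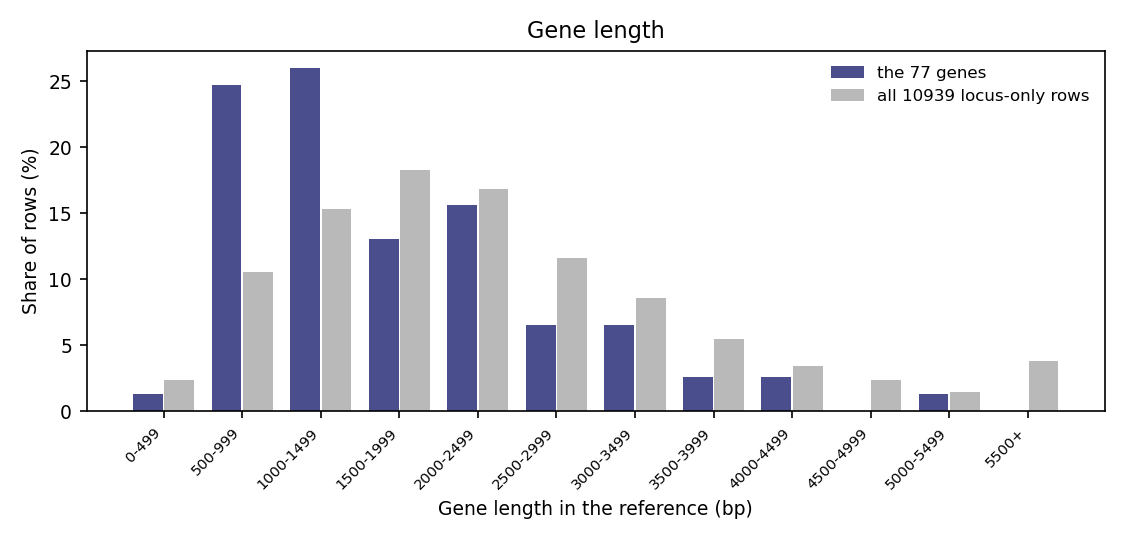
Share of rows in percent (vertical axis) by gene length in the reference in classes of 500 bp (horizontal axis), for the 77 genes and for all 10939 locus-only probe sets. The classes starting at 500 and 1000 bp hold 24.7% and 26% of the 77 genes, against 10.5% and 15.3% of all.

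Every one of the 77 genes was protein-coding and had 1 probe set among those naming 1 gene. Probe sets naming several genes, or with no gene listed, were not searched for a second one. None of the 77 probe sets had the suffix that marks oligonucleotides shared between transcripts, which 82 of the 10939 (0.75%) had.

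To set the genes beside described ones, each was matched to the gene with a symbol whose values over the 6 arrays were closest in Euclidean distance, a step added after the values were seen. The 77 genes had 31 closest genes among 1477 probe sets, and 24 of the 31 met the same thresholds, which the large shared difference makes likely from the start. The distance ran from 0.11 to 1.71, with a median of 0.48.

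AT1G51090 was closest to COR15A, a cold-regulated protein of the chloroplast, at a distance of 0.56, and AT1G80130 to the sugar transporter SWEET13, at 1.45. AT1G22160 and AT3G53980 were closest to GLC, at 0.72 and 0.52. AT5G22460, AT2G23910 and AT2G38465 were closest to the dehydrin LTI30, with distances of 0.69, 0.59 and 0.59. AT2G41640 and AT4G27280, with their high WT replicate 3 and low p53 replicate 1, were closest to STZ, a zinc finger protein of the stress response, at 0.51 and 0.48. STZ had 0.92, 0.71 and 1.61 in WT and -2.25, -1.62 and -0.71 in p53-transgenic seedlings. All 3 genes of the chromosome 4 trio were closest to CML38, a calmodulin-like calcium sensor, at 0.64 for AT4G27657, 1.12 for AT4G27652 and 1.71 for AT4G27654. CML38 had 0.85, 0.77 and 2.37 in WT and -1.59, -1.55 and -0.77 in p53-transgenic seedlings, with WT replicate 3 again the highest. Further down the list, AT1G72920 was closest to EXO, at 0.54, and AT1G61890 to the sugar transporter TMT2 of the vacuole membrane, at 1.04. TMT2 and the tetraspanin TET3 were each the closest gene of 6 of the 77, and SP1L2 and UGT84A3 each of 5. Such likeness describes 6 arrays and says nothing of shared function or control.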

How the data were processed

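The deposited values are log2 expression, summarized by the authors with PLIER, with the median of every row at 0. The base of the log was taken as 2. The sources used here name no background correction or normalization between arrays. The methods name GeneSpring for the statistics. For RNA extraction the labels and the methods name different kits. Of 22810 probe sets, 64 controls were left out. In the array annotation 13513 of the others name 1 gene, 503 name several and 8730 have no gene listed there. Of the 13513, 13484 matched the TAIR10.1 reference, used for names, gene type, length and gene order. Of 11933 probe sets naming 1 locus, 993 were pseudogenes.

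Genes outside the 77 were tested using lmFit and eBayes of limma (version 3.58.1, R version 4.3.3), two-sided, adjusted by Benjamini-Hochberg across 22746 rows. The scripts were tested on simulated data. The design had no covariate. The limma p-values set the genotype difference against the spread between 3 arrays of each genotype, pooled partly over all probe sets. Having 3 arrays per genotype limits the precision. After removing genotype means, WT and p53 arrays sharing a replicate number had correlations of 0.124, 0.271 and 0.337 over probe sets. The numbers were therefore taken to pair the arrays, and blocking on the number was an alternative. Alternatives were the cutoff, normalization, the block, eBayes with trend and robust, the methods' t-test and leaving out each array.

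The members, gene lists and tests were chosen with earlier results of these data known. Named in full were the 12 lowest genes, those next to the threshold and the 4 neighbours with the smallest p; others were named after their values were seen. Product classes and promoter motifs were not analysed here.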

Additional observations from a re-analysis of the deposited data

How the results depend on the processing

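The cutoff decided how many genes were taken, with 231 at -1 and 25 at -2 in place of 77 at -1.5. Requiring -1.5 in each same-numbered pair (the replicate block) left 36. Quantile normalization gave 101 genes, which included all 77, and centring each array on its median 74. Leaving out 1 array gave 64 to 92 genes.

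Over all rows 3500 probe sets passed, 2010 of them lower. With the methods' t-test these were 1411 and 743, and among probe sets naming 1 gene only, where fewer were tested, 1933 and 1169. Leaving out 1 array gave 1621 to 4346, and 899 to 2385 lower. The replicate block gave 3878 and 2153. Without 1 array 8 to 26 of the neighbouring genes were lower (5.3% to 17.2%, against 3.49% to 10.1% of the 12336 probe sets). Between 2 and 9 were higher (1.32% to 5.96%, against 3.02% to 7.94%). With the block 23 were lower (15.2% against 9.16%) and 6 higher (3.97% against 6.9%). Among 228 probe sets of genes within 3 places of a member 29 were lower (12.7%) and 6 higher (2.63%). Among 82 of genes directly next to one, a setting chosen after seeing the data, 13 were lower (15.9%) and 4 higher (4.88%). With all 6 arrays and no block, the shares over the 12336 probe sets outside the members were 8.63% and 6.01%. The cause of these shifts was not tested. None of the 4 named neighbours changed direction or its side of the threshold. Quantile normalization widened the differences of the 12 lowest genes, to -6.46 for AT1G80130.

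Centred values allow no filter on low signal, and signal over background was not used here. Alternatives for product classes were not run, since the reference tables used here give no product text.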
